A study of Mus musculus with 16 samples.

Results

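Solute carriers (genes named Slc with a family number) encode the membrane proteins that move sugars, amino acids, ions, organic acids, vitamins and metabolites across cell membranes. Their methylation differences in mouse kidney were taken from the authors' deposited list of differentially methylated regions, by keeping every autosomal region whose annotated gene carries such a symbol. This gave 1488 regions at 317 genes of 48 families, out of 82057 autosomal regions and 86510 regions in all. Of the 317 symbols, 6 name a regulator, an antisense transcript or a pseudogene rather than a carrier, and these have 14 regions.

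The series compared kidneys of wild type and Gulo-/- mice, both on the strain given as C57BL/6. Loss of Gulo removes the final enzyme with which mice make vitamin C. The labels name no diet, age, sex or added agent. Bisulfite sequencing and single-cell RNA sequencing each had 2 samples per genotype, from kidneys that were cut up, mixed and shared out among the assays. Whether the samples are separate animals is not stated in the labels, and p-values then cover only the spread between the samples at hand. The list of regions gives a mean methylation level for each of 2 sides, called side 1 and side 2 here. It does not say which genotype is which side, and it holds no value per sample and no coverage. No methylation value below therefore has a replicate error, and the depth behind it is unknown.

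In the kidney, carriers are laid out along the nephron. The proximal tubule reabsorbs most of the filtered glucose, phosphate, bicarbonate and amino acids and secretes organic anions and cations, the thick ascending limb and distal convoluted tubule reabsorb salt, and intercalated cells handle acid and base. Methylation of CpG dinucleotides near a gene's start is usually low in cells that use the gene, and vitamin C is a cofactor of the TET enzymes that oxidise methylated cytosine.

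The promoter sequences shown here are those of proximal tubule carriers where a region overlapped the window around a start. They are RefSeq windows (build GRCm38.p6, the assembly also called mm10) of 250 bases before to 50 bases after a transcription start. A window was listed for 249 of the 317 genes. Regions overlapped 50 windows of 46 genes, and 42 of the 50 (84.0%) were higher on side 2. A region that overlaps 2 windows counts at both, as at Slc44a1 and Slc25a23. Windows of all genes were not counted, and 78.8% of regions annotated as promoter over all genes were higher on side 2. The 6 windows below had an overlap of at least 150 bases and the largest differences per direction in the proximal tubule group, and capitals mark CpGs that lie inside the region. The windows of Slc35e3 (chr10:117746309-117746608, minus strand), Slc2a5 (chr4:150119094-150119393, plus strand) and Slc3a1 (chr17:85028097-85028396, plus strand) shared 300, 184 and 192 of their bases with a region higher on side 2. Those of Slc22a12 (chr19:6543021-6543320, minus strand), Slc5a10 (chr11:61719936-61720235, minus strand) and Slc16a9 (chr10:70245026-70245325, plus strand) shared 155, 224 and 280 bases with a region higher on side 1. The regions of Slc2a5, Slc3a1 and Slc22a12 stop short of the start itself.
Slc35e3: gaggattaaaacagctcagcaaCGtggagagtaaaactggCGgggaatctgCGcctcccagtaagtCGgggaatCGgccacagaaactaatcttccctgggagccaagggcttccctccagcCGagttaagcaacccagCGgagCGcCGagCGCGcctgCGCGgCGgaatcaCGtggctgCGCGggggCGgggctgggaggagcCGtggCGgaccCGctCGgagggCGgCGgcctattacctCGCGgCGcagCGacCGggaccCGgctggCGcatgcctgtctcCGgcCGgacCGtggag
Slc2a5: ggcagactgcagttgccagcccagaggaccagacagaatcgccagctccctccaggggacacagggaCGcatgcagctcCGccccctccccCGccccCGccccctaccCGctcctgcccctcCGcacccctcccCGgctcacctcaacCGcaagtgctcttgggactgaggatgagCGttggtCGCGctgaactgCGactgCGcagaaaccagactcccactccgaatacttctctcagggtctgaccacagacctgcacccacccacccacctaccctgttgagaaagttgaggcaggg
Slc3a1: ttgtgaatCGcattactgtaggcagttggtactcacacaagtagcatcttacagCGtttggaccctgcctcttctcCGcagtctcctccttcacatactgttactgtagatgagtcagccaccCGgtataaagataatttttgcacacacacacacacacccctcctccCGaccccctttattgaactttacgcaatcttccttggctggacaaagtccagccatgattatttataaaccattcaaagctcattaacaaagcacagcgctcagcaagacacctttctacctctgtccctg
Slc22a12: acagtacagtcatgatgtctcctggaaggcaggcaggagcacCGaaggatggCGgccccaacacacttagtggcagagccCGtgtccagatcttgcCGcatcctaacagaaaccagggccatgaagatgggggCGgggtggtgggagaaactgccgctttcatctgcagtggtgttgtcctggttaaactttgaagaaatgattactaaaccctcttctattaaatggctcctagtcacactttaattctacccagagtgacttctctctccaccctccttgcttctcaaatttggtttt
Slc5a10: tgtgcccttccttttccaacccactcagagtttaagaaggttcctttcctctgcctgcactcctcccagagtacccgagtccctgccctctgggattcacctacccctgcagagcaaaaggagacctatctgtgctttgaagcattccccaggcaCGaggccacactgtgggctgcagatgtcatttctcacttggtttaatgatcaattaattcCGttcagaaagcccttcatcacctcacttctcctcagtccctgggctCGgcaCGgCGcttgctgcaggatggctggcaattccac
Slc16a9: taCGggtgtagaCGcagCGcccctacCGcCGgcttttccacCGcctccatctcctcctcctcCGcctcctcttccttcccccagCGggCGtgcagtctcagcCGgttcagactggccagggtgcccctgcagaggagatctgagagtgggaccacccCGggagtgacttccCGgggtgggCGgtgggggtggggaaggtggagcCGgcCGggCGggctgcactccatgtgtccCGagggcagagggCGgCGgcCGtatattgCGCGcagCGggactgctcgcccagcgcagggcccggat

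The sequences show how differently these starts are built. The Slc35e3 window is a dense CpG cluster, with 34 CpGs that all lie inside the region, and Slc16a9 had 23 of its 26 CpGs inside. The Slc3a1, Slc22a12 and Slc5a10 windows are CpG-poor, each with 5 CpGs inside the region. Windows were searched on both strands for 2 motifs of proximal tubule transcription factors, the HNF1 half-site GTTAAT and the HNF4 core CAAAGTCCA. The HNF1 half-site was in 10 of 60 windows of proximal tubule group genes (16.7%) and in 1.15% of windows of carriers shared between segments. It was in 6.73% of windows of undetected carriers and in 7.10% of all RefSeq windows. The median window held 6 CpGs in the proximal tubule group, 20 in the shared group, 10 in the undetected group and 7 over all windows. The part of CpG content in these shares was not tested. The HNF4 core was in 1 of the 60 windows, that of Slc3a1, which also holds the HNF1 half-site, and in 0.475% of all windows. The motifs do not overlap each other, and a match of letters is a description, not a binding site.

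Most of the carrier regions were more methylated on side 2. Of the 1488 regions, 948 (63.7%) were higher on side 2 and 540 on side 1, where 55.1% of all autosomal regions were higher on side 2. The median level was 63.8% on side 1 and 73.0% on side 2. In the list as a whole these medians were 69.7% and 71.0%. By size, 712 regions (47.8%) differed by at least 20 percentage points, against 43.5% of all autosomal regions. The median difference, side 1 minus side 2, was -20.6 points in regions higher on side 2 and 18.1 points in the others, beside -19.8 and 18.4 over all autosomal regions. The median region held 6 CpGs over 259 bases. Every region is in the list because the authors called it, so the share and the size are descriptions, with no test.

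Carrier regions lay somewhat nearer to genes than the rest of the list: 37.8% were within 10 kb of a transcription start, against 32.3% of all autosomal regions, and 34.5% were intergenic, against 41.3%. Direction differed with position. Of 162 promoter regions, 135 (83.3%) were higher on side 2, as were 404 of 597 intron regions (67.7%) and 43 of 49 regions in 3' UTRs (87.8%). Over all genes the shares were 78.8% of promoter, 60.5% of intron and 65.2% of 3' UTR regions. Intergenic carrier regions were split, with 253 of 514 (49.2%) higher on side 2, beside 42.8% over all genes. If each annotation class had the direction it has over all genes, 56.8% of the carrier regions would be higher on side 2, against the 63.7% seen. The annotation names the nearest transcription start, and of the 717 intron or exon regions whose annotation gives the gene ID of that intron or exon, 112 lie in a different gene.

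Carriers were then grouped by where the kidney uses them, from the single-cell libraries. Cells were clustered without any Slc gene and named from other marker genes, so that the groups rest on the carriers' own levels only at the last step. A gene went to the nephron segment with its highest level, in CPM (summed UMIs scaled to a common library total), if that was at least 10 CPM and at least 2 times the next segment. This placed 53 genes in the proximal tubule, 12 in the thin limb, 5 in the thick ascending limb, 1 in the distal convoluted and connecting tubule, 6 in principal cells and 3 in intercalated cells. A further 92 were shared between segments, 38 were highest outside the nephron, 105 were not detected and 2 were not in the matrices. Droplet counts are sparse, and the not detected group holds Slc9a3, the sodium-proton exchanger of the proximal tubule, at 0.226 CPM in proximal tubule-like cells.

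The make-up of the libraries bears on these groups. Proximal tubule-like cells were 81.9% of the cells in wild type replicate 1 and 84.1% in replicate 2. In the Gulo-/- libraries, replicate 1 had 49.1% and replicate 2 had 23.7%. Thin limb-like cells numbered 8 and 11 in the wild type libraries, under the minimum of 20, and 31 and 244 in those of Gulo-/-. Thin limb levels, and so the thin limb group, therefore come from the Gulo-/- libraries only. In bulk DNA a different share of a cell type and a different methylation level within that type cannot be told apart, and the part of this difference in the regions was not tested. Totals ran from 10073836 to 88925323 UMIs, with 1575 to 12403 cells per library and median depths of 3014 to 4876.5 UMIs. The wild type libraries had 986 barcodes in common, and the other pairs 9 to 282; the barcodes shared by the wild type libraries were removed from replicate 2. Of the 11 proximal tubule-like clusters, 5 came almost wholly from wild type replicate 2 and held 89.7% of its proximal tubule-like cells, but 1.47% of those of wild type replicate 1 and 0.220% and 0.0680% of those of the Gulo-/- libraries.

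In the proximal tubule group, 192 of 283 regions (67.8%) were higher on side 2. By gene, 22 of the 53 had all their regions higher on side 2, 3 had all higher on side 1 and 28 had both. The share was close to that of other genes of the same expression group, 72.7% of 1796 regions at 388 genes. The carriers not detected in any class had 227 of 417 regions higher on side 2 (54.4%), beside 43.3% at other undetected genes. Carriers shared between segments had 285 of 424 (67.2%) and those highest outside the nephron 116 of 169 (68.6%). Other genes of these 2 groups were at 65.9% and 59.1%. Carriers of the proximal tubule, shared and outside groups were thus higher on side 2 in more of their regions than undetected ones. Those of principal cells, with 18 of 32 (56.3%), were close to the undetected. With at least 10 CpGs the undetected share lay closer to the others, as given below. With the groups set from the wild type libraries alone, which leaves no thin limb class to compare with, the proximal tubule share was 73.6%.

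**Figure D1:**
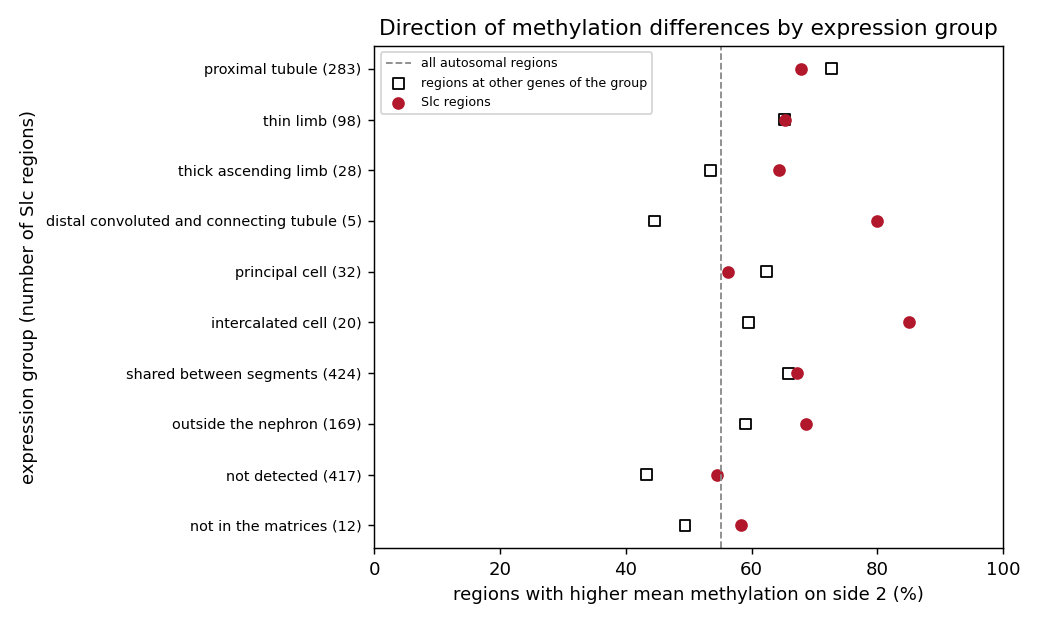
Share of regions with higher mean methylation on side 2 (x axis, percent) by expression group (y axis, with the number of Slc regions). Filled points are Slc regions, open squares are regions at other genes of the same group and the dashed line is the 55.1% of all autosomal regions. The undetected group has the lowest Slc share, 54.4%, and groups with few regions scatter widely.

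Within the proximal tubule group, direction differed with position as it did for all carriers. Promoter regions were higher on side 2 in 24 of 31 cases (77.4%), and other regions in or at genes in 123 of 159 (77.4%). Of 93 intergenic regions, 45 (48.4%) were higher on side 2. Undetected carriers had 33 of 40 promoter regions (82.5%) higher on side 2, but 125 of 234 other regions in or at genes (53.4%). Over all genes 78.8% of promoter regions were higher on side 2, and both promoter shares, from few regions, lay near it. In the other regions at genes the proximal tubule carriers had the higher share, beside 60.5% of intron regions over all genes. All 23 promoter regions of carriers highest outside the nephron were higher on side 2.

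**Figure D2:**
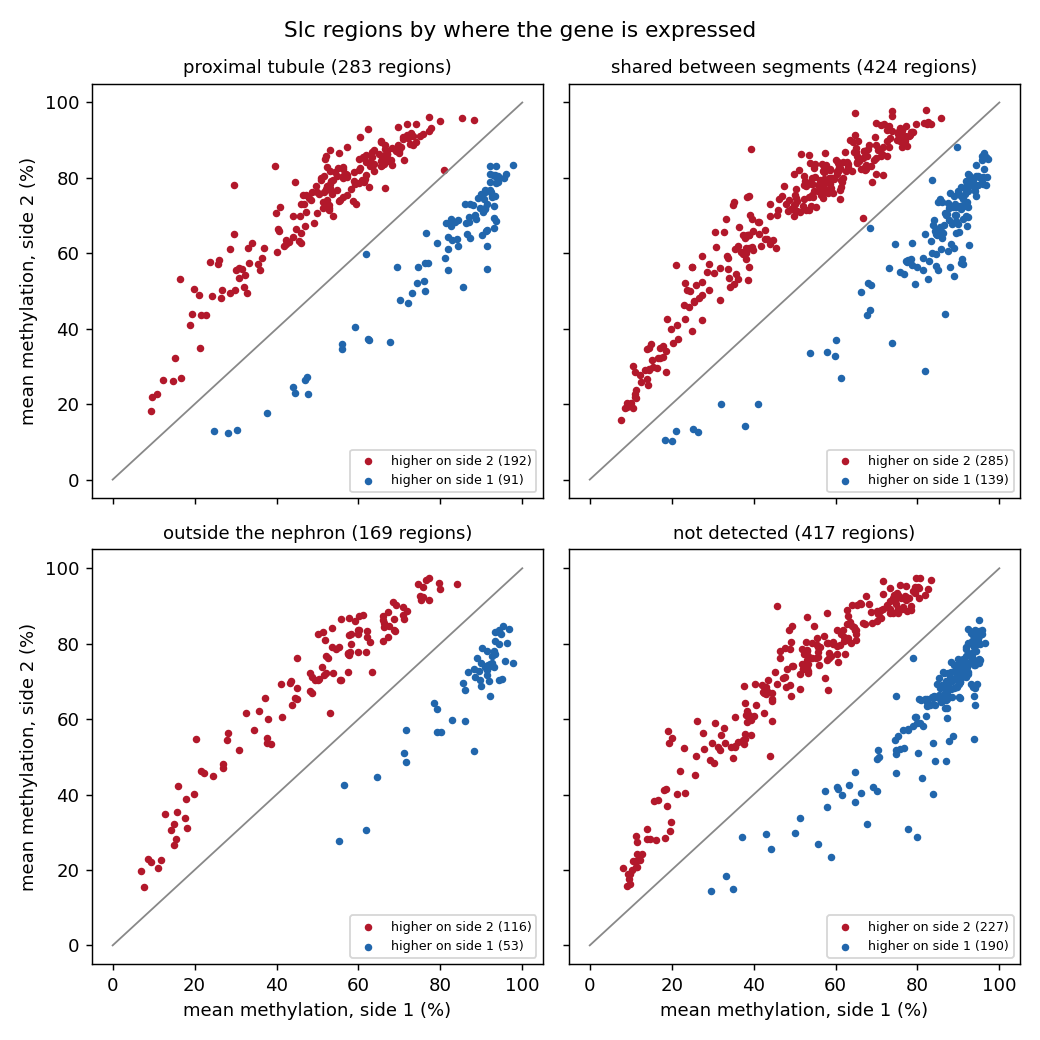
Mean methylation on side 1 (x axis, percent) and side 2 (y axis, percent) of each Slc region in the 4 largest expression groups; each point is a region and the line marks equal levels. Regions higher on side 2 (red) span low to high levels, and regions higher on side 1 (blue) crowd at high levels on side 1, and the band along the line is nearly empty because the list holds called regions.

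Among carriers of bicarbonate, Slc4a4, the basolateral sodium bicarbonate cotransporter, had more regions than any other carrier, 32, of which 25 were higher on side 2. Its strongest region, chr5:89028121-89028537, annotated as promoter, had 14 CpGs at 29.6% on side 1 and 78.1% on side 2. This was the largest difference in that direction among all carrier regions with at least 5 CpGs. The region begins 155 bases after a RefSeq start that lies inside the gene, and the window of that start (chr5:89027716-89028015, plus strand), shown with its 3 CpGs in capitals because the region follows it, is CpG-poor.
Slc4a4: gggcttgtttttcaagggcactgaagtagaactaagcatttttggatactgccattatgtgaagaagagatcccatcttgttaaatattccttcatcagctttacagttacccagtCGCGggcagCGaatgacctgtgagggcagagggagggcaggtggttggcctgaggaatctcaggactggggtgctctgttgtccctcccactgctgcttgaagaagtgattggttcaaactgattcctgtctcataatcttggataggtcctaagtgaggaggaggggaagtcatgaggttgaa

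Of the 28 Slc4a4 regions that are not intergenic, 24 were higher on side 2, and of its 4 intergenic regions, 1 was. Slc34a3, a sodium phosphate cotransporter of the brush border, had 1 region, in a 5' UTR (chr2:25233297-25233519), at 39.7% and 83.1% on sides 1 and 2. Slc34a1, the main phosphate cotransporter of this segment, had 2 regions, both higher on side 2, the larger in intron 8 of 12 at 30.8% and 53.5%. Slc9a3 had 6 regions, all higher on side 2, with its largest difference in intron 1 of 15 at 49.4% and 84.6%.

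Among sugar carriers, Slc2a2, the glucose transporter of the basolateral membrane, had 9 regions, of which 8 were higher on side 2. The largest, in intron 1 of 10 (chr3:28699086-28699465), lies 1183 bases after the start and had 10 CpGs at 29.6% and 65.1%. Slc5a2, the apical sodium glucose cotransporter, had 4 regions, all higher on side 2, with the largest at 72.0% and 90.5%. Slc2a5, a fructose transporter, had 5 of 5 higher on side 2, and its promoter region (chr4:150119134-150119317, 15 CpGs) was at 34.1% and 62.7%. Slc5a10, a sodium cotransporter of mannose and fructose, had 2 of 3 regions higher on side 2. Its promoter region (chr11:61719811-61720159, 9 CpGs) was the exception, at 62.3% and 37.4%. The myo-inositol carrier Slc5a11 had a promoter region (chr7:123214945-123215309) at 25.6% and 57.1%.

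Amino acid carriers were mixed. Slc3a1, a subunit of the cystine transporter, had 7 regions, all higher on side 2, with 52.8% and 71.4% at its promoter region. Its partner Slc7a9 had 2 regions, both higher on side 1, at most by 19.5 points. Slc1a1, a glutamate transporter, had 3 regions higher on side 2, one of them with 4 CpGs in intron 1 at 39.4% and 87.7%. Slc6a19, which takes up neutral amino acids, had 1 region, near its start, at 51.5% and 80.5%. Slc36a1, a proton-coupled carrier of small amino acids, had 7 of 7 higher on side 2, and a promoter region (chr11:55214293-55214515) at 55.3% and 86.5%. Slc7a7 and Slc7a8, basolateral exchangers encoded on chromosome 14, had 4 of 7 and 8 of 15 regions higher on side 2, and their largest differences were both higher on side 1.

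Carriers of organic anions, cations and urate belong to the Slc22 and Slc47 families. Slc22a6, an anion uptake transporter, had 6 regions, all higher on side 2, on side 1 at 50.96% to 73.4% and on side 2 at 75.5% to 88.8%. Slc22a8, its companion, had 4 of 7. Slc22a2, a cation transporter, had its largest difference at the promoter, 48.3% and 74.0% over 21 CpGs (chr17:12584286-12584919), and Slc47a1, which exports cations to the urine, had 4 of 4 higher on side 2. Slc22a12, the urate exchanger, had 16 regions, of which 12 were higher on side 2. Its promoter region (chr19:6543166-6543398, 7 CpGs) was among the 4 that were not, at 72.0% and 46.9%, while a region annotated as 5' UTR of a shorter transcript (chr19:6540251-6540628) was at 40.3% and 66.4%. Both directions thus occurred within this carrier.

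**Figure D3:**
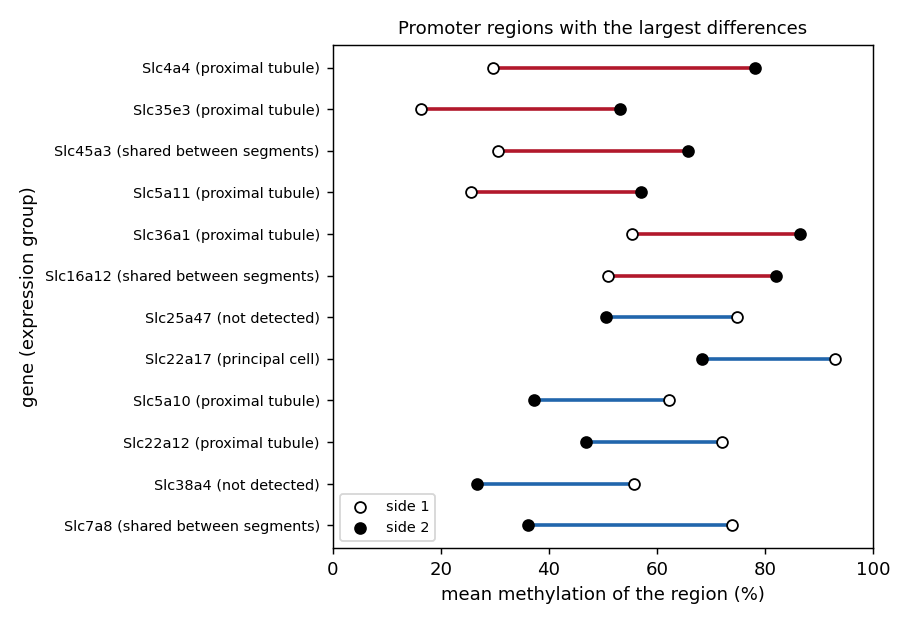
Mean methylation (x axis, percent) on side 1 (open points) and side 2 (filled points) of the 6 Slc promoter regions with the largest differences in each direction, with at least 5 CpGs, by gene and expression group (y axis). Slc4a4 spans 29.6% to 78.1%, and Slc7a8 runs the other way, from 73.9% to 36.2%.

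A list of 43 textbook proximal tubule carriers, chosen with earlier results of these data known, had a region at 40 members, and Slc17a1, Slc22a13 and Slc38a3 had none. Of the 201 regions of the list, 160 (79.6%) were higher on side 2, with a median difference of -20.2 points, beside 55.1% and -12.7 points over all autosomal regions. The 4 carriers of vitamin C or its oxidised form had 14 regions, 12 of them higher on side 2. Slc23a1, the sodium ascorbate cotransporter of the proximal tubule, had 1, in a 3' UTR, at 53.0% and 81.7%. Slc23a2, the more widely used ascorbate cotransporter, had 4 of 5 higher on side 2, with 43.2% and 69.5% near its start. Slc2a1 had 6 of 6 higher on side 2 and Slc2a3 had 1 of 2.

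Beyond the proximal tubule the groups were small. Slc6a6, the taurine transporter, was at 2031 CPM in thin limb-like cells of the Gulo-/- libraries. It had 17 regions, of which 16 were higher on side 2. Its 13 regions that are not intergenic were all higher on side 2, and the 2 largest, in introns 1 and 2 of 4, were at 48.6% and 84.9% and at 41.7% and 78.7%. Slc12a1, the salt cotransporter that defines the thick ascending limb, had 2 regions, both higher on side 2, with 24.1% and 52.7% in intron 4 of 4 of the annotated transcript. Slc12a3, the salt cotransporter of the distal convoluted tubule and the only member of its group, had 4 of 5 higher on side 2, led by intron 2 of 16 at 31.0% and 56.5%. The exception, in exon 14 of 17, was at 86.3% and 69.0%.

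In the collecting duct, Slc43a2, an amino acid carrier at 299.5 CPM in intercalated cell-like cells, had 13 regions, of which 12 were higher on side 2, at up to 49.5% and 79.3%. It supplied most of the 20 regions of the intercalated cell group, 17 of which were higher on side 2 (85.0%). Slc4a9, a bicarbonate carrier of intercalated cells, had 2 of 2, and Slc26a7, a chloride carrier that was not detected here, had 2 of 6. In principal cells 18 of 32 regions were higher on side 2 (56.3%), and Slc22a17, on chromosome 14, had a promoter region higher on side 1 at 93.0% and 68.3%. The urea carriers Slc14a2 and Slc14a1 had 8 of 14 and 0 of 1 higher on side 2.

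Some carriers had long runs of regions in which direction differed with position. Slc16a7, a monocarboxylate transporter, had 22 regions, 8 of them higher on side 2. All 5 within 10 kb of a start were higher on side 2, among them intron 1 (chr10:125327085-125327330) at 35.1% and 72.9%, while 13 of its 15 intergenic regions were higher on side 1. Slc10a2, the bile acid transporter, had 20 regions, all intergenic and at least 209710 bases from its start, and 18 were higher on side 1. Without this gene the proximal tubule group had 190 of 263 regions higher on side 2 (72.2%). Slc4a3, an anion exchanger, was alike: 18 intergenic regions, 12 of them higher on side 1. The annotation gives such far regions to the nearest start.

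Of 124 carriers with at least 5 regions, 21 had all of them higher on side 2, 2 had all higher on side 1 (Slc5a7 and Slc6a11) and 101 had both. Slc25a13, a mitochondrial aspartate-glutamate carrier, had 13 of 13 higher on side 2, Slc25a25 had 10 of 10 and Slc11a2, an iron transporter, 9 of 9. Neighbouring regions of one carrier tended to have one direction: 100 of 126 neighbouring pairs within 1 kb (79.4%) had the same direction. Over all genes the figure was 76.4%, so regions of 1 gene are not independent of each other.

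The largest differences in the other direction were concentrated on chromosome 14, which also carries Gulo (chr14:65986786-66009254). Of the 12 largest regions higher on side 1, 10 lay there, all at Slc7a8 and Slc35f4. Of the 12 largest higher on side 2, 0 did. The largest regions over all genes were not counted in this way. Chromosome 14 held 67 of the carrier regions and 4402 of all autosomal regions. Slc7a8 led the regions higher on side 1 with an intergenic region at 81.7% and 28.9% (chr14:54792854-54793049, 8 CpGs). Slc35f4, which had 0 CPM in every class, had 10 of 11 regions higher on side 1, in intron 1 of 7 at 79.99% and 28.7% (chr14:49489534-49489906). These genes lie 11.2 and 16.4 Mb from Gulo at their nearest regions. Over the 67 carrier regions of chromosome 14, 55.2% were higher on side 2 and the median difference in either direction was 24.4 points. On other autosomes these values were 64.1% and 19.5 points. Over regions at all genes, 42.2% were higher on side 2 on chromosome 14 and 55.8% elsewhere, and the sizes were 20.6 and 19.1 points, closer together than for carriers. Slc25a30, on the same chromosome, had 8 of 8 higher on side 2.

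Expression of the same carriers was compared between genotypes in the 3 nephron classes with enough cells in every library, by edgeR's quasi-likelihood test on summed UMIs. The side of a genotype being unknown, no direction of methylation can be set against a direction of expression. In proximal tubule-like cells 51 of 10987 genes passed an adjusted p of 0.05 (0.464%), and of 200 carriers with a region tested, 1 did. It was Slc22a7, which transports organic anions, with 57 and 390 UMIs in the wild type libraries against 3 and 6 in those of Gulo-/-. Its level of 7.90 and 10.5 CPM in wild type stood against 0.779 and 0.517 CPM in Gulo-/- cells, so the genotypes did not overlap. The log2 change was -4.08 ± 0.45 (SE, n = 2 per genotype, edgeR adjusted p = 0.0322). The adjusted p was 0.117 with sex as a block, and 0.131 and 0.113 without Gulo-/- replicate 1 and 2. Slc22a7 had 4 regions, all higher on side 2, with a promoter region 1125 bases before its start (chr17:46439602-46439843, 9 CpGs) at 77.2% and 91.5%.

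None of the 53 carriers of the proximal tubule group passed the test. Slc22a7 was not among them: its mean over libraries was under 10 CPM, which put it in the not detected group. Changes of the 53 were 25 positive and 28 negative, with a median log2 change of -0.02 and 11 at an unadjusted p under 0.05. Over all 10987 genes tested in edgeR, 1700 had an unadjusted p under 0.05. By DESeq2, 9 of 278 carriers with a region passed in these cells, beside 289 of 16888 genes. Slc4a4 had 248.0 and 239.8 CPM in the wild type libraries against 523.6 and 465.7 CPM in those of Gulo-/-, without overlap (log2 change 0.89 ± 0.26, SE, n = 2 per genotype, edgeR adjusted p = 0.191). Slc22a2 was at 41.8 and 57.4 CPM and at 18.4 and 15.01 CPM (log2 change -1.70 ± 0.27, edgeR adjusted p = 0.0523). Slc34a3 had 47.9 and 22.2 CPM in wild type cells against 11.7 and 22.2 CPM in Gulo-/- cells. Slc35e3 had 9.98 and 13.2 CPM in wild type cells against 27.3 and 15.2 CPM in Gulo-/- cells. Slc3a1 was at 67.6 and 61.8 CPM and at 102.3 and 103.2 CPM (edgeR adjusted p = 0.307). Slc22a12, at 183.2 and 490.3 and at 198.1 and 99.8 CPM, overlapped between genotypes.

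**Figure D4:**
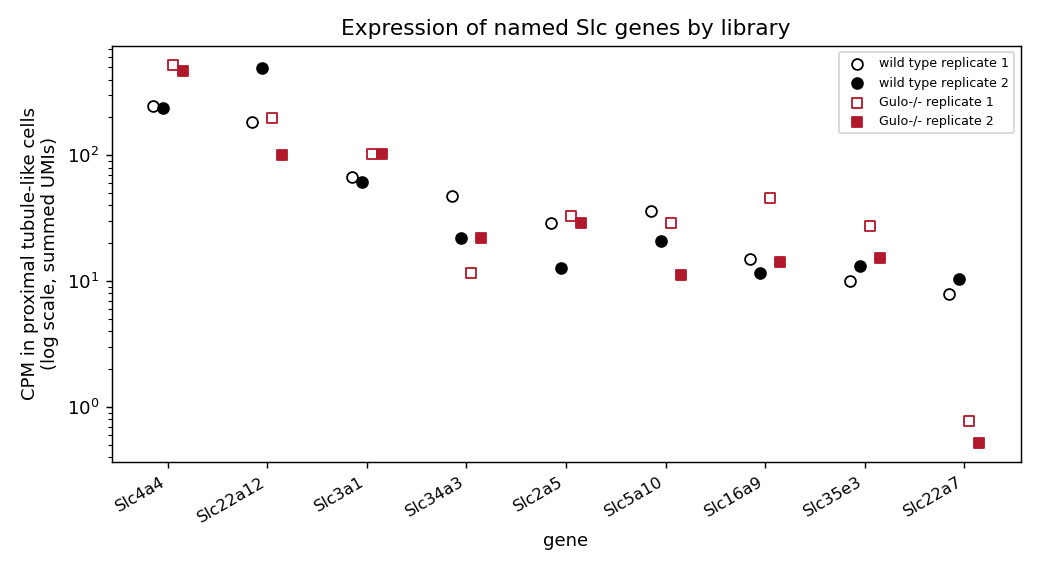
Level in proximal tubule-like cells (y axis, CPM of summed UMIs, log scale) of named carriers (x axis) in each library; circles are wild type and squares Gulo-/-, open for replicate 1 and filled for replicate 2. Slc22a7 is near 10 CPM in wild type and below 1 CPM in Gulo-/- libraries. None of the other plotted genes passed the test, and with 2 libraries per genotype a gap between the points is not a result.

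In thick ascending limb-like cells 115 of 6077 genes passed (1.89%) and 2 of 76 carriers did. Slc12a3 had 11.8 and 7.79 CPM in wild type cells against 48.4 and 61.2 CPM in Gulo-/- cells (log2 change 2.64 ± 0.51, SE, n = 2 per genotype, edgeR adjusted p = 5.92e-05). The adjusted p was 0.311 without wild type replicate 2, 0.241 without Gulo-/- replicate 2, 0.0572 with sex as a block and 0.232 by DESeq2. Slc27a2, a fatty acid transport protein of the proximal tubule, was at 29.4 and 87.6 and at 21.5 and 20.2 CPM (log2 change -1.87 ± 0.38, adjusted p = 2.22e-04). Its adjusted p was 0.916 without wild type replicate 2, 0.256 without Gulo-/- replicate 2, 0.349 with sex as a block and 0.851 by DESeq2. In distal convoluted and connecting tubule-like cells 62 of 6652 genes passed (0.932%) and 1 of 82 carriers, again Slc27a2 (-2.10 ± 0.41, adjusted p = 0.00761). There its adjusted p was 0.784 without wild type replicate 2, 0.152 with sex as a block and 0.292 by DESeq2. With a mitochondrial limit of 25% no carrier and no other gene passed in edgeR in either class. At an unadjusted p under 0.05 were 4 of 23 and 1 of 31 carriers tested, beside 110 of 2030 and 210 of 2568 genes. Both carriers belong to another segment: Slc27a2 was at 435.7 to 813.1 CPM in proximal tubule-like cells, and Slc12a3 at 532.3 to 1750 CPM in distal convoluted and connecting tubule-like cells. Those distal cells were 3.11% and 2.298% of wild type and 9.03% and 18.7% of Gulo-/- cells, and proximal tubule-like shares ran the other way, as given above. The part of these shares in the 3 results was not tested.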

How the data were processed

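Kidney of wild type and Gulo-/- mice was profiled by single-cell RNA sequencing and bisulfite sequencing, 2 samples per genotype, with groups taken from the labels. The single-cell matrices hold raw UMI counts as deposited, by a counting tool not given in the sources used here. From the bisulfite libraries the authors' deposited list of regions gives mean methylation as a fraction (0 to 1) for each side, printed here as percent, with other deposited values: the number of CpGs, the distance to a start and an annotation. Its area statistic, a score of the authors, was not used. Build mm10, Seurat 2.3.4 and MACS2 2.1.2 are named per the submitters' processing notes. The authors' deposited marker table gives an average natural log (ln) ratio per cluster, and a p-value with cells as units that was not used: of 27 carriers it lists for a proximal tubule cluster, 25 were in the proximal tubule group here. Coordinates are 1-based, as in the authors' list. The m6A and bulk RNA files were not used.

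Barcodes with at least 500 UMIs, 200 genes and at most 50% mitochondrial UMIs were kept. The highest Scrublet scores were removed as doublets, up to 0.8% per 1000 barcodes (20, 559, 28 and 1559 barcodes). Cells were clustered in scanpy 1.11.5 (2000 variable genes without Slc genes, 30 principal components, 15 neighbours, Leiden resolution 1, leidenalg 0.10.2) into 33 clusters, named where over 50% of a marker list was detected (class names carry "-like"); 2 stayed unnamed. UMIs were summed per library and class with at least 20 cells. Levels are means of CPM over the libraries that had at least 20 cells of the class. Genotypes were compared with edgeR 4.0.16 (TMM, filterByExpr, robust quasi-likelihood F test, Benjamini-Hochberg adjustment, threshold 0.05); DESeq2 1.42.0 was an alternative. The test was checked on simulated counts. Xist and Ddx3y counts gave the sex: each genotype had a female and a male library.

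Members, lists and groups were chosen with earlier results of these data known. Regions were named by rule, among those with at least 5 CpGs: the 12 largest differences per side, the 3 largest per group and side, and the 6 largest promoter regions per side. Also named were the 8 carriers with the most regions, textbook carriers with their largest region, and carriers that passed the test. Regions and expression groups were recomputed under other limits, and the tests with each library left out.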

Additional observations from a re-analysis of the deposited data

How the results depend on the processing

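Of 434 values under the alternatives tried, 316 stayed within the limits used, 103 moved and 15 lost their call. Gene counts stayed within the limits up to a ratio of 1.5 to the main count. The limit for the share without Slc10a2 was a binomial interval that takes regions as independent. Regions of 1 gene are not independent, so the 316 does not measure robustness. None of the 434 was marked as reversed in direction, but counts could not be, as they have no direction. Methylation values move with the regions counted, since differences near 0 are nearly absent from the list; why a value moved was not tested. Over all carriers the share higher on side 2 (63.7%) was 75.7% with at least 10 CpGs, 73.7% with differences of at least 0.2, 78.5% within 10 kb of a start and 69.4% with 1 value per gene, and the median difference was -17.3, -22.4, -18.9 and -8.79 points. With at least 10 CpGs the groups held 71 (proximal tubule), 24 (thin limb), 9 (thick ascending limb), 7 (principal cell), 7 (intercalated cell), 114 (shared), 32 (outside), 99 (not detected) and 4 (not in the matrices) regions. Their shares were 76.1% (proximal tubule), 79.2% (thin limb), 100% (intercalated cell), 76.3% (shared), 78.1% (outside) and 72.7% (not detected), with medians of -20.7 (thin limb) and -15.3 (not detected). With 1 value per gene the shares were 77.4% (proximal tubule), 75% (thin limb), 80% (thick ascending limb), 100% (distal, intercalated and not in the matrices), 72.8% (shared) and 76.3% (outside), with medians of -13.5, -7.11, -12.97 (shared) and -12.96 (outside). At 20 CPM the proximal tubule share was 75% with a median of -19.9, and 651 regions were not detected. The wild type libraries alone, which had too few thin limb-like cells for that class, gave a proximal tubule share of 73.6%, with 10 distal and 63 principal cell regions. Distal regions numbered 29 at 5 CPM and 10 at a ratio of 1.5, principal cell regions 69 and 4 at ratios of 1.5 and 3, and intercalated cell regions 48 at 1.5 (median -17.4). Leaving out Slc10a2, chosen after seeing the data, gave 72.2% in the proximal tubule. Without each library in turn, the thin limb share was 54.9% to 66%, the share outside the nephron 60.5% to 68.4% (median -17.0 to -14.7), and distal regions 5 to 10.

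Counts of genes called changed with the setting. For all genes, then carriers, in proximal tubule-like cells (51 and 1), DESeq2 gave 289 and 9, no filter 871 and 28, sex as a block 0 and 0 (1522 genes at an unadjusted p under 0.05), a 25% mitochondrial limit 80 and 2, DESeq2 size factors 2 carriers and kept shared barcodes 3. In thick ascending limb-like cells (115 and 2) they gave 8 and 0 (DESeq2), 8 carriers (no filter), 15 and 0 (sex) and 0 and 0 (25%). In cells like distal convoluted or connecting tubule (62 and 1) they gave 15 and 0, 171 and 7, 23 and 0, and 0 and 0. Leaving out each library gave 1 to 316 genes and 0 to 10 carriers, 29 to 173 and 0 to 7, and 78 to 167 and 1 to 8 in the 3 classes. In the first class the count was 316 without wild type replicate 1, 84 without wild type replicate 2 and 1 without either Gulo-/- library. Libraries with the same replicate number did not deviate together (correlations 0.02, -0.08 and -0.02). Libraries with the same number differ in sex between the genotypes, so these correlations cannot decide whether the numbers pair them. With the replicate block the counts were 293 and 10, 52 and 2, and 10 and 0. Methylation depth is unknown, and with 2 libraries per genotype small changes of low carriers could not be detected.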

Other observations

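By family, the mitochondrial carriers of Slc25 had the most regions, 173 at 39 genes, and 73.4% were higher on side 2. The organic ion carriers of Slc22 had 120 regions at 24 genes (66.7%), and the glucose carriers of Slc2 had 50 (68.0%). The Slc7 amino acid exchangers stood lower, with 34 of 70 regions higher on side 2 (48.6%), and 22 of these 70 lie at the chromosome 14 genes Slc7a7 and Slc7a8. Slc10, the bile acid carriers, had 36 regions, of which 36.1% were higher on side 2, and 20 of the 36 are the distant regions of Slc10a2. All 11 regions of Slc11, the metal ion carriers, were higher on side 2.

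Slc38a4, an amino acid carrier known to be imprinted in the mouse and not detected here, had one of the CpG-rich promoter regions that were higher on side 1 (chr15:97054981-97055539, 28 CpGs), at 55.8% and 26.8%. Slc25a21, a mitochondrial carrier of the proximal tubule group, also had a promoter region higher on side 1, with 36 CpGs (chr12:57196665-57197018) at 24.7% and 12.9%. Slc25a48 had an intergenic region 3720 bases before its start at 20.4% and 54.8%. CpG density made little difference to direction: 64.3% of carrier regions with at least 5 CpGs per 100 bases were higher on side 2, and 63.6% of the rest, beside 61.7% and 53.7% over all genes. The minimum of 5 was set after the data were seen.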
